A study of Mus musculus with 6 samples.

Results

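The output genes of the circadian clock were examined in mouse distal colon, in 6 libraries of poly-A RNA. They were the 9 genes Dbp, Tef, Hlf, Nfil3, Ciart, Bhlhe40, Bhlhe41, Usp2 and Wee1, found by symbol among the 19844 genes of the deposited table. They were chosen by symbol as textbook clock-controlled genes, once their FPKM in the 6 libraries, the correlations among them and the genotype comparison were known. Those measurements are therefore given here as a description, and no threshold on a value decided membership. The groups were 3 wild-type (WT) mice and 3 ChREBP knockout mice, all of strain C57BL6, labelled female, and all treated with azoxymethane and dextran sulfate sodium (AOM/DSS) and taken on day 17. Azoxymethane is a colon carcinogen and dextran sulfate sodium injures the colon lining. ChREBP, encoded by Mlxipl, is a transcription factor that responds to sugar metabolites, and the study compares mice with and without it. The sources used here do not state the age of the mice, the deleted part of Mlxipl, the tissues in which it was deleted or the hour at which tissue was taken.

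The circadian clock is a transcriptional loop in which CLOCK, or its relative NPAS2, pairs with BMAL1 (listed under its older symbol Arntl) and activates genes through the E-box, a short DNA element. Among the genes so activated are the PER and CRY repressors, which close the loop, and the REV-ERB receptors (Nr1d1 and Nr1d2), which repress Arntl. Output genes carry the rhythm to the rest of the cell. DBP, TEF and HLF are related activators of the PAR bZIP family that bind the D-box element, and NFIL3 is a bZIP repressor of the same element. Colon cells, like those of most tissues, run this clock, and in wild-type animals Dbp and Nfil3 peak at opposite times of day.

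The libraries had an estimated depth of 17700000 to 18425000 reads, and 13079 to 13253 genes per library were at 1 FPKM or more. FPKM are fragment counts scaled to transcript length and library size, so levels can be set side by side between genes. Checked against the tissue label, epithelial markers summed to between 6275 and 7533 FPKM in wild type and between 6509 and 7459 in knockout, and Hoxb13, a distal hindgut factor, lay between 203.5 and 274.2. Of the 3 hepatocyte markers, Alb, the albumin gene, was at 0.51 to 1.04 FPKM and Apoa2 at 0.69 to 1.53, but Ttr, the transthyretin gene, was at 25.18 to 41.74 in these libraries. For all 10 marker lists of cell types and tissues the summed levels of the 2 genotypes overlapped. Smooth muscle markers summed to between 2635 and 3599 FPKM in wild type and between 2816 and 4281 in knockout. Contrary to the sex label, the Y-linked gene Ddx3y was at 9.51 to 12.11 FPKM and Xist at 0.02 to 0.04 in all 6 libraries. Mlxipl itself read 5.84, 7.49 and 7.27 FPKM in the wild types (6.87 ± 0.896, SD, n = 3) and 3.40, 5.66 and 5.04 in the knockouts (4.70 ± 1.17). By these values transcript of the targeted gene remained in the knockouts. Every knockout was below every wild type, as in 4.14% of all tested genes. The log2 fold change of Mlxipl was -0.48 (SE 0.18, limma adjusted p = 0.9995), and -0.30 without knockout replicate 1. Wild-type replicate 3 stood apart from the other wild types in the clock genes and also in Rnase1, a pancreatic-type ribonuclease gene, at 70.67 FPKM against 0.35 to 1.19 in the other 5 libraries. The main counts, orders, correlations and fold changes of the output genes are given with and without it, an alternative partly added after seeing the data.

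Promoter windows from RefSeq (build GRCm38.p6, 250 bases before to 50 bases after each annotated start) were available for 7 of the 9 genes. Bhlhe40 and Wee1 were not matched. The E-box was searched as CACGTG, which reads the same on both strands. It was present in the windows of Ciart, Tef and Bhlhe41, with 3 copies in Ciart and 1 copy at each of the 2 starts of Tef. For comparison, 7.15% of all 32851 windows held the letters at least once and 0.0883% held them at least 3 times. The stretches before the starts of these genes are shown because they carry the element through which CLOCK and BMAL1 act, and the Dbp stretch is shown beside them because Dbp varied most and its window has no such match. Capitals mark the E-box, and sequences run 5′ to 3′ on the strand of the gene.
Ciart, chr3:95882229-95882478, minus strand: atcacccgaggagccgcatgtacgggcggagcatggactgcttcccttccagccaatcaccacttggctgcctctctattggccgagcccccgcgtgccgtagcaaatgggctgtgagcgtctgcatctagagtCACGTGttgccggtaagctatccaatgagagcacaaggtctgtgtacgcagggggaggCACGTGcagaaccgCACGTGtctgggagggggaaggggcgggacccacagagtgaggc
Tef start 1, chr15:81802423-81802672, plus strand: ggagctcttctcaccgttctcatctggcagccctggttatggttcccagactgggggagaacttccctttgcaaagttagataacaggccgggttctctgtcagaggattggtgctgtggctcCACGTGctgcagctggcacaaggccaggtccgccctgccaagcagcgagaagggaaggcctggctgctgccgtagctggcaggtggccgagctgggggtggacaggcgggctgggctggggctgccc
Tef start 2, chr15:81811164-81811413, plus strand: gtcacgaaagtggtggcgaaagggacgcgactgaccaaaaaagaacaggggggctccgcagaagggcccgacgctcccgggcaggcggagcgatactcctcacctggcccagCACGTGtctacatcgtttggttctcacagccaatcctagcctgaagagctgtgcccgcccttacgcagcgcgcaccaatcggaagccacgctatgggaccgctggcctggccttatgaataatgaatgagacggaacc
Bhlhe41, chr6:145865421-145865670, minus strand: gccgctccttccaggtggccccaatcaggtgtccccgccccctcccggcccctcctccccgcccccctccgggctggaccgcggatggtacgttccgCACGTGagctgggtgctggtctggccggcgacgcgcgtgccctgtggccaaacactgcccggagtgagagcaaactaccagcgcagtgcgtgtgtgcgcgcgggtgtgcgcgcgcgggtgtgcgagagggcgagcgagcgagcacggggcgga
Dbp, chr7:45704997-45705246, plus strand: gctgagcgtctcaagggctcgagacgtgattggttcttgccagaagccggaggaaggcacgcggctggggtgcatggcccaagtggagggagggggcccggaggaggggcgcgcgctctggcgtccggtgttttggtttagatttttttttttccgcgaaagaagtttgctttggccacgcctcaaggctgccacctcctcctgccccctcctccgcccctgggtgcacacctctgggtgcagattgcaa

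In Ciart the E-boxes began 116, 58 and 44 bases before the start of the gene, so the nearest pair lay within a short stretch upstream. In Tef they began 127 bases before start 1 and 138 bases before start 2, and in Bhlhe41 153 bases before the start. The D-box, searched as TTATGTAA and TTACGTAA on both strands, was in none of the 7 genes' windows, against 0.938% and 0.119% of all windows. The half-site AGGTCA, which REV-ERB and ROR receptors bind, was found in 1 of the 7, in Nfil3, 12 bases before the start on the opposite strand, against 16.3% of all windows. The cAMP response element TGACGTCA was found in Hlf, 9 bases before the start, against 1.79% of all windows. The carbohydrate response element, to which ChREBP binds as a pair of E-box-like sites, had no match in these windows and one in 0.119% of all windows. These are letter matches in a 300-base window and say nothing of binding or of elements elsewhere in the genes.

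**Figure D1:**
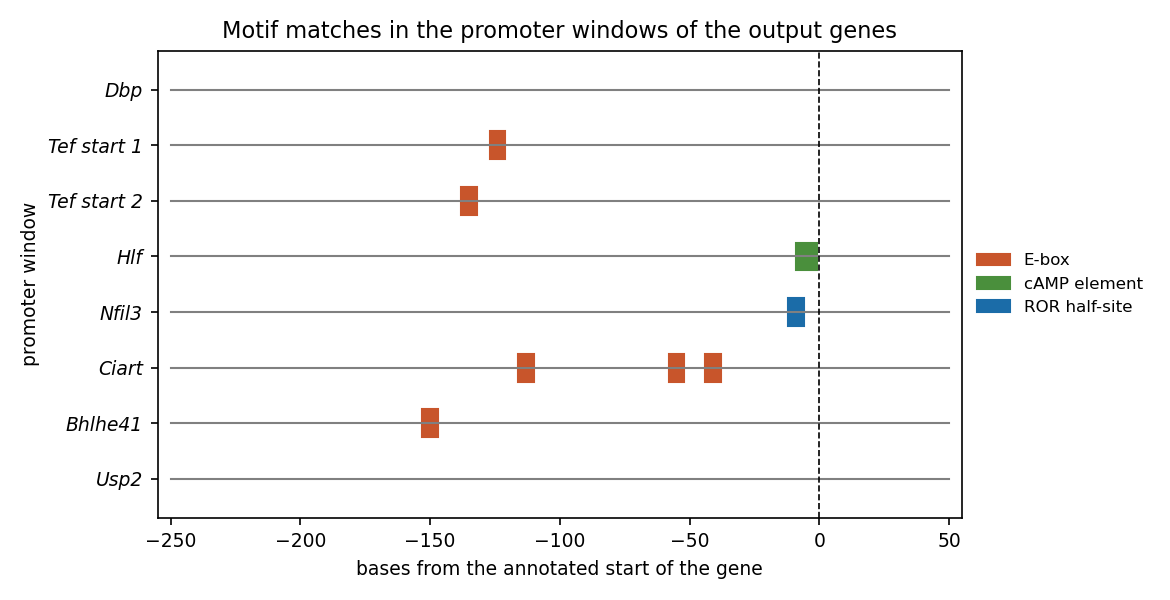
Motif matches in the promoter windows of the 7 output genes with a RefSeq window (Tef has 2 annotated starts). The x axis gives bases from the annotated start (dashed line) and each grey line is 1 window, with boxes for the E-box, the half-site of ROR and REV-ERB receptors and the cAMP element; Ciart carries 3 E-boxes, 116, 58 and 44 bases upstream.

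Transcripts of the PAR bZIP factors spanned wide ranges among mice of the same genotype. Dbp (gene 13170, chromosome 7), the D-site binding factor, read 57.41, 43.06 and 0.95 FPKM in wild-type replicates 1 to 3 and 5.77, 0.94 and 6.14 in knockout replicates 1 to 3. Wild-type replicates 1 and 2 were far above every other library, wild-type replicate 3 and knockout replicate 2 were lowest and nearly equal, and the other 2 knockouts lay between. The highest library exceeded the lowest 61.1-fold, and the mean of wild-type replicates 1 and 2 was 52.9 times the value of wild-type replicate 3. By its spread over the 6 libraries (SD of log2(FPKM + 1) of 2.12, against a median of 0.161 over all tested genes) Dbp ranked 2 among 13247 tested genes, after Rnase1. That SD was at least 0.6 in 6 of the 8 tested output genes, against 1.81% of all tested genes. Without wild-type replicate 3, Dbp ranked 1, and the SD was at least 0.6 in 6 of the 8, against 1.68% of all. The lowest value corresponds to about 31 reads at the estimated depth and the highest to about 1914, so the range is not one of single reads. In whole tissue, fewer cells of a type and less RNA per cell cannot be told apart.

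Tef (gene 21685, chromosome 15), the thyrotroph embryonic factor, followed Dbp closely in a smaller range. It read 46.58, 38.92 and 5.36 FPKM in wild type and 12.11, 5.53 and 12.70 in knockout, an 8.69-fold range. Hlf (gene 217082, chromosome 11), the hepatic leukemia factor and the least abundant of the 3, read 4.35, 4.10 and 0.88 FPKM in wild type and 0.86, 0.97 and 2.18 in knockout. Here too wild-type replicates 1 and 2 were highest, but knockout replicate 1 was at the level of wild-type replicate 3 rather than above it. In wild-type replicate 1 Dbp and Tef were at similar levels per length, whereas in wild-type replicate 3 Tef exceeded Dbp several-fold, so the lowest libraries kept more Tef than Dbp transcript.

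Nfil3 (gene 18030, chromosome 13), the repressor that competes with the PAR bZIP factors for the D-box, ran the other way. It read 1.02, 1.22 and 4.89 FPKM in wild type and 3.71, 4.08 and 3.69 in knockout. The 2 wild types rich in Dbp were the lowest for Nfil3, wild-type replicate 3 was the highest, and the 3 knockouts lay in a narrow band just under it. Nfil3 was the sole gene of the 9 whose lowest libraries were wild-type replicates 1 and 2. The lowest value rests on about 38 reads.

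The transcriptional repressors among the outputs differed in how far they varied between libraries. Ciart (gene 229599, chromosome 3, also called Chrono), which represses CLOCK-BMAL1, read 13.92, 9.67 and 0.62 FPKM in wild type and 1.5, 1.01 and 2.49 in knockout. By the spread of its log2 values it ranked 10 among all tested genes, with a 22.5-fold range (rank 13 and 13.8-fold without wild-type replicate 3), and its lowest library, wild-type replicate 3, holds about 15 reads. Bhlhe40 (gene 20893, chromosome 6, DEC1), a bHLH repressor that binds E-boxes and also responds to hypoxia and other signals, was the most abundant of the 9. It read 71.18, 65.48 and 35.99 FPKM in wild type and 64.99, 51.64 and 71.04 in knockout, a 1.98-fold range (1.38-fold without wild-type replicate 3) in which knockout replicates 1 and 3 stood level with the high wild types. Bhlhe41 (gene 79362, chromosome 6, DEC2), its paralog, read 1.37, 1.64 and 0.48 FPKM in wild type and 0.44, 0.65 and 0.51 in knockout. The 4 lower libraries of Bhlhe41 lay close together, with no step between knockout replicate 2 and knockout replicates 1 and 3 in the direction seen for Dbp. It reached 1 FPKM in 2 libraries only and was the 1 gene of the 9 not tested for genotype.

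Wee1 (gene 22390, chromosome 7), the kinase that holds CDK1 inactive and so delays entry into mitosis, read 11.46, 9.97 and 5.04 FPKM in wild type and 6.51, 5.90 and 7.34 in knockout. Its range was 2.27-fold, small beside that of Dbp, but the libraries stood in the same order as for Tef. Usp2 (gene 53376, chromosome 9), a deubiquitinase with a strong daily rhythm in many tissues, read 14.28, 16.07 and 8.99 FPKM in wild type and 3.94, 5.10 and 5.20 in knockout. Over the 6 libraries it was the 1 gene of the 9 in which the genotypes did not overlap, with every knockout below every wild type. Wild-type replicate 3, the lowest library for Tef, Ciart and Wee1, was for Usp2 1.73 times the highest knockout. Without that library the trait was not particular to Usp2. Wild-type replicates 1 and 2 then lay above every knockout in 7 of the 9, against 8.61% of all tested genes. In Nfil3 they lay below every knockout.

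**Figure D2:**
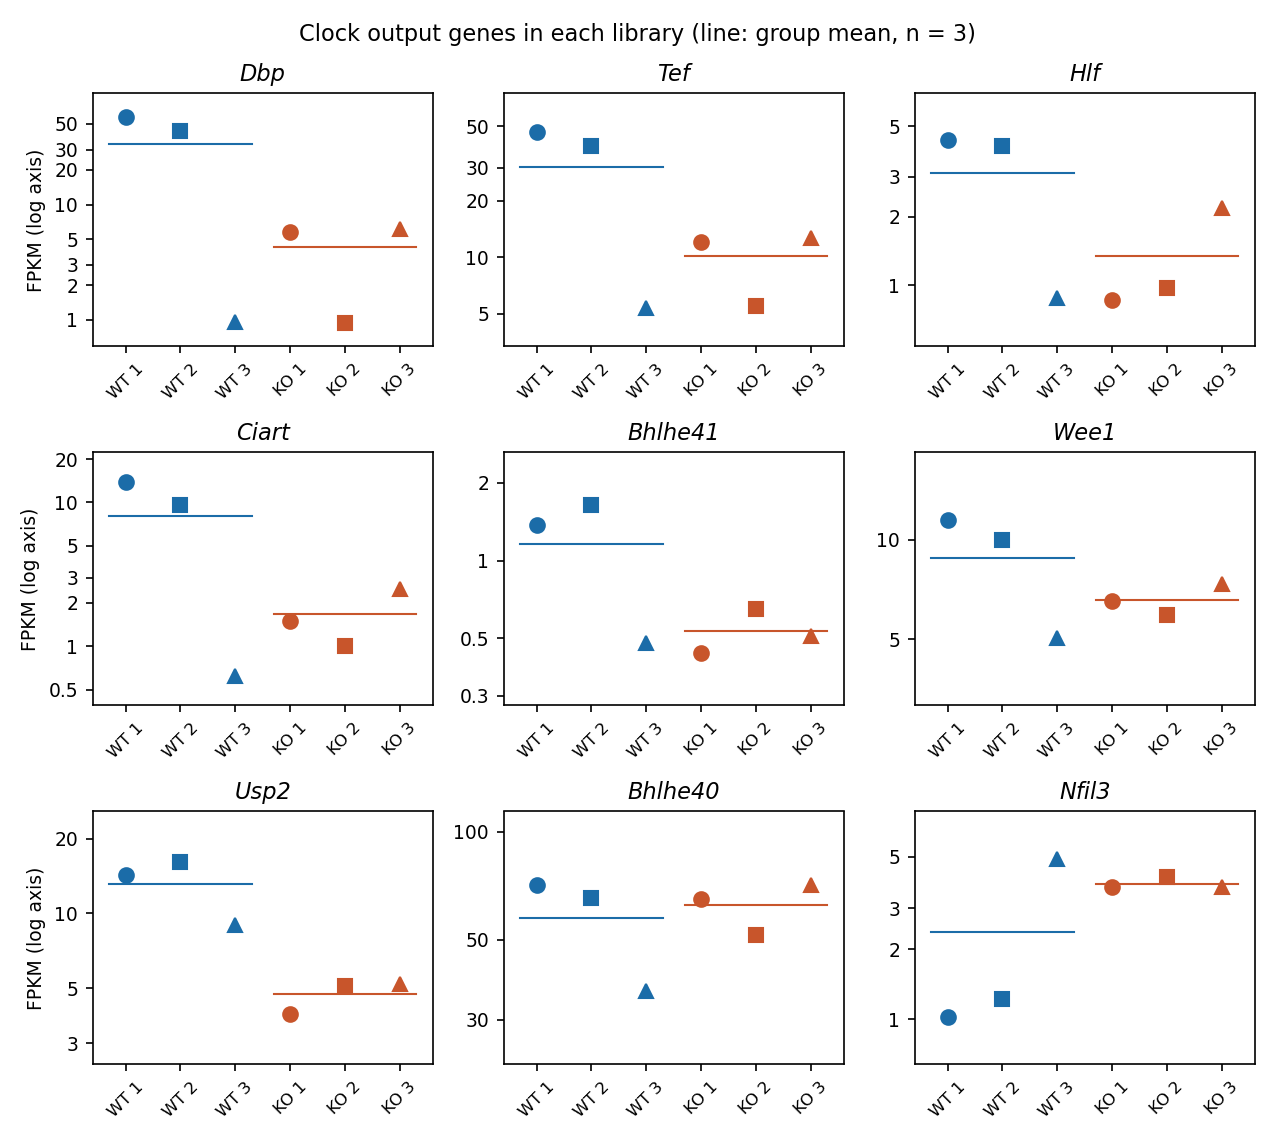
FPKM of the 9 output genes in each library, on log axes that differ between panels (blue, wild type; orange, ChREBP knockout; marker shape, replicate number; line, group mean, n = 3). In 7 of the 9 panels wild-type replicates 1 and 2 are the highest libraries, Nfil3 is reversed, and Usp2 alone has all 3 knockouts below all 3 wild types.

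Several of the genes shared one order of libraries. Tef, Ciart and Wee1 had the identical order, from wild-type replicate 3 as the lowest through knockout replicates 2, 1 and 3 to wild-type replicates 2 and 1, and Nfil3 had exactly the reverse. Dbp departed from the order of Tef only in its 2 lowest libraries, which at 0.94 and 0.95 FPKM were nearly tied. Among the 12594 tested genes with 6 different values, 18 had the order of Tef and 20 the reverse. The 18 include Tef, Ciart and Wee1, and the 20 include Nfil3. Wild-type replicates 1 and 2 were the highest libraries in 7 of the 9 output genes, against 5.29% of all tested genes. All 9 had a larger SD of log2(FPKM + 1) among the wild types than among the knockouts, as did 39.4% of tested genes. Without wild-type replicate 3 that held for 2 of the 9 and 24.6% of tested genes, so the wider spread among wild types rested on that library in the other 7. The 2 remaining wild types were still the highest libraries in 7 of the 9, against 8.61% of tested genes. Over those 5 libraries Dbp joined Tef, Ciart and Wee1 in 1 order, which 114 of 12755 tested genes with 5 different values had.

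Across the 6 libraries Dbp and Tef had a Pearson r of 1.0 (Spearman rho 0.94) on the log2 scale, Dbp and Ciart of 0.98 (0.94), Dbp and Wee1 of 0.98 (0.94) and Dbp and Nfil3 of -0.96 (-0.94). These are descriptions of libraries that fall into separate groups, so no p is given. Of the 36 pairs of output genes, 23 had an r of at least 0.8 in size, and 28 without wild-type replicate 3. Without that library Dbp had an r of 0.97 with Ciart and with Wee1, of -0.95 with Nfil3 and of 0.89 with Usp2. It was 0.91 with Hlf and 0.83 with Bhlhe41. Leaving out wild-type replicates 1 and 2, the farthest from the median, r stayed at 1.0 for Dbp and Tef, at 0.88 for Dbp and Ciart, at 0.87 for Dbp and Wee1 and at -0.82 for Dbp and Nfil3. The same 4 libraries gave 0.55 for Dbp and Hlf, -0.56 for Dbp and Bhlhe41 and -0.66 for Dbp and Usp2, so those relations rested on the 2 high wild types. Bhlhe40 correlated weakly with Usp2 (r of 0.06) and at 0.72 with Dbp, where its r was 0.87 without the 2 high wild types. Without wild-type replicate 3 its r was 0.36 with Usp2 and 0.70 with Dbp. In deviations from the genotype means it was 0.76 with Usp2 and 0.99 with Dbp.

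The core loop shared the library pattern of Dbp in part. Wild-type replicates 1 and 2 were the highest libraries in 5 of 10 core clock genes, against 5.29% of all tested genes. Arntl read 6.33, 8.25 and 26.90 FPKM in wild type and 17.20, 26.30 and 19.07 in knockout, the mirror image of Dbp (r of -0.99, and -0.98 without wild-type replicates 1 and 2). Npas2 read 3.80, 7.12 and 17.29 and then 14.08, 20.75 and 13.19, alike in direction to Arntl and Nfil3. Nr1d1, the REV-ERB-alpha gene, read 77.67, 94.62 and 16.13 in wild type and 65.33, 27.65 and 80.01 in knockout. Knockout replicates 1 and 3 thus held Nr1d1 near the level of the high wild types while their Dbp was 5.77 and 6.14 FPKM. The ratio of Nr1d1 to Dbp therefore differed between libraries, and the cause was not tested. Nr1d2, the paralog of Nr1d1, followed Dbp instead, at 34.46, 27.63 and 8.61 FPKM and then 13.88, 9.36 and 18.14. Per2 read 21.70, 16.13 and 5.75 in wild type and 7.68, 3.87 and 7.06 in knockout, and Per3 read 11.51, 9.98 and 3.61 and then 3.93, 4.47 and 5.21. Both period repressors were highest in the 2 wild types rich in Dbp. Cry1 read 6.11, 5.22 and 9.84 and then 6.57, 9.46 and 4.95, with wild-type replicate 3 and knockout replicate 2 highest. Clock, at 16.90, 17.36 and 23.25 and then 17.54, 17.10 and 19.67, stayed in a narrower range than these.

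**Figure D3:**
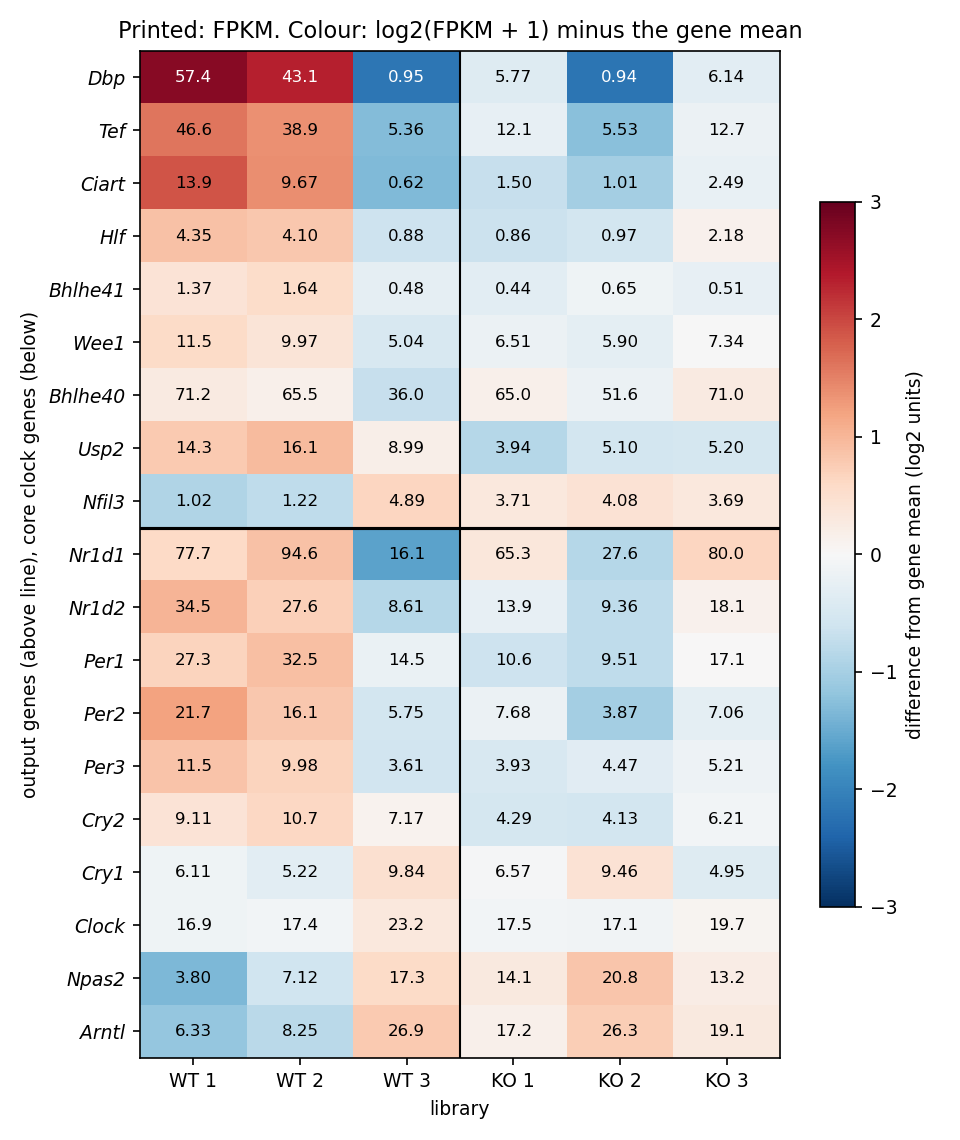
FPKM of the 9 output genes (above the line) and 10 core clock genes (below) in each library. Colour gives log2(FPKM + 1) minus the gene's mean over the 6 libraries; wild-type replicates 1 and 2 are red for Dbp, Tef and Ciart and blue for Nfil3, Npas2 and Arntl, and wild-type replicate 3 and knockout replicate 2 are blue for all 3 of the former.

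Set against genotype, mean levels were lower in knockout for 7 of the 9 output genes and higher for Bhlhe40 and Nfil3. With all libraries the genotypes overlapped in all but Usp2. Without wild-type replicate 3, 8 of the 9 were lower on the log2 scale. Of the 8 tested, 6 had a negative log2 fold change (median -0.92), against 47.3% of all tested genes (median 0.01). Mean Dbp was 33.8 ± 29.3 FPKM for the wild types and 4.28 ± 2.90 for the knockouts (SD, n = 3). On the log2(FPKM + 1) scale that is a fold change of -1.91 (SE 1.2), and its 95% interval runs from -4.69 to 0.87. Tef was at 30.3 ± 21.9 and 10.1 ± 3.98 (log2 fold change -1.12, SE 0.71), Ciart at 8.07 ± 6.79 and 1.67 ± 0.754 (-1.29, SE 0.74) and Hlf at 3.11 ± 1.94 and 1.34 ± 0.732 (-0.71, SE 0.41). Nfil3 was at 2.38 ± 2.18 and 3.83 ± 0.22 FPKM (0.70, SE 0.37). The intervals of these 5 genes include 0.

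Wee1 was at 8.82 ± 3.36 and 6.58 ± 0.723 FPKM (log2 fold change -0.31, SE 0.25) and Bhlhe40 at 57.6 ± 18.9 and 62.6 ± 9.93 (0.17, SE 0.25). Mean Usp2 was 13.1 ± 3.68 for the wild types and 4.75 ± 0.70 for the knockouts, which is 36.2% of the wild-type mean. Its log2 fold change was -1.27 (SE 0.21), with an interval of -1.74 to -0.79. In limma over all 13247 genes its adjusted p was 0.591, and it was 0.9995 for the other 7 tested output genes. None of the 8 passed the threshold of 0.05, which 0.0151% of all tested genes did in either direction and 0.00755% as lower in knockout, and 1 had an unadjusted p under 0.05, against 3.4% of all. Groups did not overlap, with knockout lower, in 1 of the 8, against 4.14% of all tested genes, or 8.67% in either direction. Without wild-type replicate 3 every knockout was below both wild types in 7 of the 9 output genes, against 8.61% of all tested genes. Since the genes were chosen with these results known, nothing is read from those counts.

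The direction depended on which wild types were compared. With wild-type replicate 3 as the only wild type, a choice made after seeing the data, the log2 fold changes turned to 1.22 for Dbp, 0.73 for Tef, 0.68 for Ciart, 0.27 for Hlf and 0.32 for Wee1, and to -0.29 for Nfil3. Without wild-type replicate 3 they were -3.48 for Dbp, -2.05 for Tef, -2.28 for Ciart, -1.2 for Hlf, -0.63 for Wee1 and 1.19 for Nfil3, and none was called (limma adjusted p between 0.102 and 0.649). Leaving out wild-type replicate 1 instead shrank them, to -1.03 for Dbp, -0.60 for Tef, -0.68 for Ciart, -0.45 for Hlf, -0.11 for Wee1 and 0.42 for Nfil3. Without wild-type replicate 2, Dbp was at -1.23, Tef at -0.72 and Wee1 at -0.20. Usp2 kept its direction in each, at -0.81 with wild-type replicate 3 alone and between -1.5 and -1.11 with 1 library left out. Bhlhe40 was at 0.77 with wild-type replicate 3 alone and between -0.14, without it, and 0.35, without wild-type replicate 1. The hour at which each mouse was killed is not stated, and its part in these values was not tested.

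**Figure D4:**
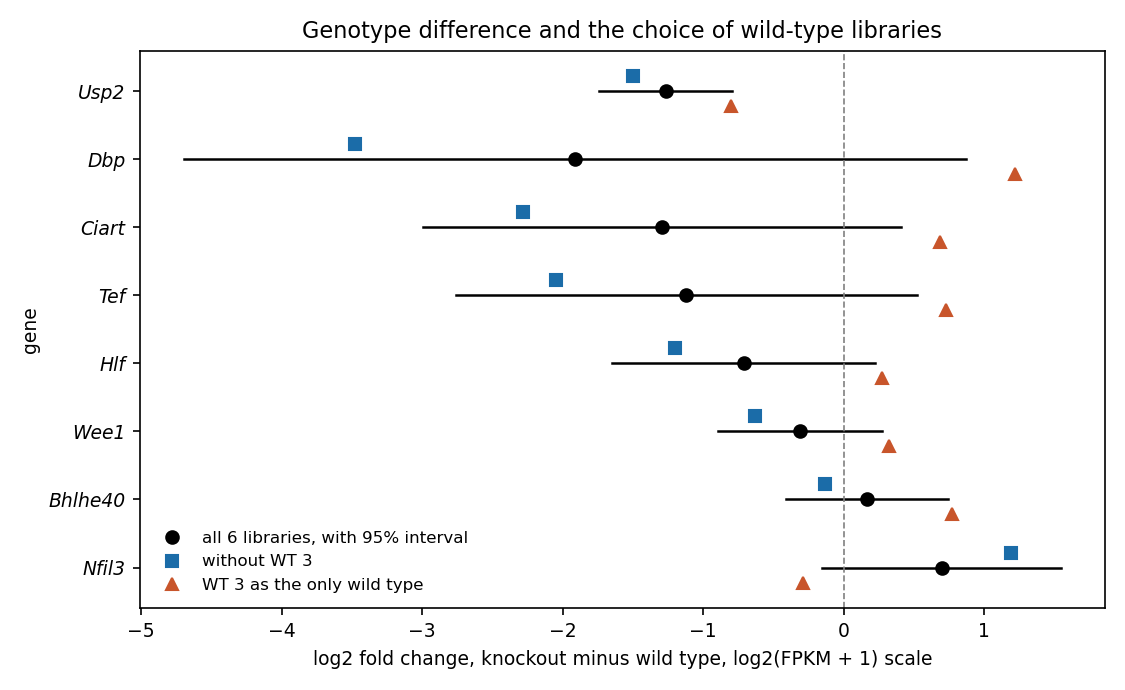
Difference between knockout and wild-type means of log2(FPKM + 1) for the 8 tested output genes with all 6 libraries (black, bar is limma's 95% interval), without wild-type replicate 3 (blue squares) and with it as the only wild type (orange triangles). Usp2 stays below 0 in all 3 fits, while Dbp moves from -3.48 to 1.22.

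Usp2 was set apart from Dbp by the 4 libraries in which Dbp is low. At nearly equal Dbp of 0.95 and 0.94 FPKM, Usp2 was 8.99 in wild-type replicate 3 and 5.10 in knockout replicate 2. In knockout replicates 1 and 3 Dbp was higher, at 5.77 and 6.14, yet Usp2 was at 3.94 and 5.20. Tef, by contrast, was higher where Dbp was higher in both genotypes, at 5.36 and 5.53 in the 2 lowest libraries and 12.11 and 12.70 in the next. Dbp and Usp2 had an r of 0.71 over the 6 libraries and of 0.89 without wild-type replicate 3. Their separation thus rested in part on that library.

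**Figure D5:**
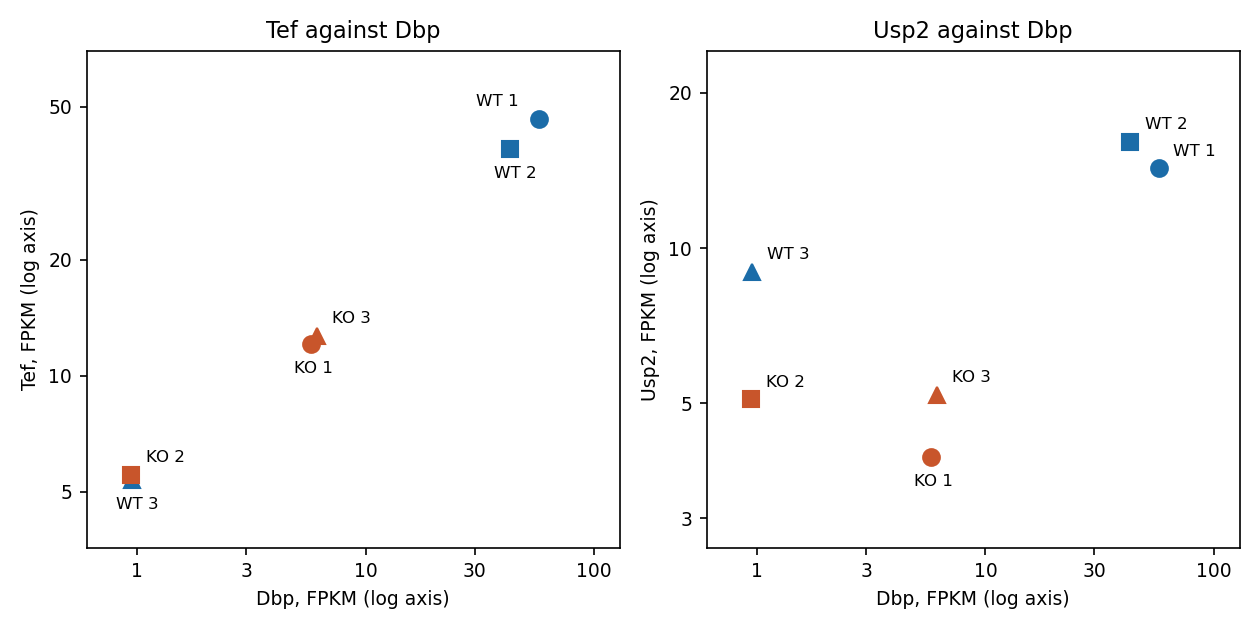
Tef (left) and Usp2 (right) against Dbp in the 6 libraries, FPKM on log axes (blue, wild type; orange, knockout; marker shape, replicate number). Tef is higher where Dbp is higher, apart from the 2 nearly tied lowest libraries, whereas for Usp2 all 3 knockouts, between 3.94 and 5.20 FPKM, lie below wild-type replicate 3, at 8.99.

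Genes with the most similar pattern were ranked by Pearson r of log2(FPKM + 1) with Dbp over the 6 libraries, among 830 other genes with a mean of at least 5 FPKM and an SD of at least 0.3. The 5 highest were Tef (1.0), Tspan4 (0.991), Nr1d2 (0.984), Wee1 (0.977) and Per2 (0.974), of which Tspan4, a tetraspanin gene, read 11.49, 9.71 and 4.01 FPKM in wild type and 5.49, 4.35 and 5.80 in knockout. The 3 lowest were Arntl (-0.990), Spon2 (-0.987), a secreted matrix protein gene, and Col5a3 (-0.983), a collagen chain gene. Spon2 read 8.12, 7.65 and 35.53 FPKM in wild type and 24.36, 35.10 and 23.30 in knockout. For Usp2 the 5 highest were Cry2 (0.947), Ang4 (0.946), Rasd2 (0.937), Ccbl1 (0.925) and Slc36a1 (0.924), and none of them was among those of Dbp. Cry2, a core clock repressor, read 9.11, 10.68 and 7.17 in wild type and 4.29, 4.13 and 6.21 in knockout, without overlap, as Usp2 did. The 3 lowest for Usp2 were the mitotic genes Ccnb2 (-0.897), Cenpa (-0.842) and Ube2c (-0.831). Without wild-type replicate 3 the same rule gave 4 of the same 5 highest and 2 of the same 3 lowest genes for Dbp, but 2 of 5 and 1 of 3 for Usp2, whose highest gene was then Cipc (0.988), a CLOCK-interacting repressor gene.

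Other genes of the same circuits were given by list, with no gene called by limma in any of them. Of 18 tested core clock genes 7 had positive and 11 negative log2 fold changes (median -0.06), and of 19 other clock-controlled genes 9 were positive and 10 negative (median 0.00), beside a median of 0.01 over all tested genes. In the latter the groups did not overlap in 1 of the 19, against 8.67% of all tested genes in either direction. That gene was Sirt1, a deacetylase gene singled out after its values were seen (limma adjusted p = 0.9995). It read 6.98, 6.92 and 7.11 FPKM in wild type and 7.26, 8.06 and 9.09 in knockout. Per1, which glucocorticoids also induce, read 27.32, 32.54 and 14.49 FPKM in wild type and 10.55, 9.51 and 17.06 in knockout. Fkbp5, a classical glucocorticoid-induced gene, read 22.14, 27.48 and 12.85 FPKM in wild type and 20.34, 17.44 and 18.12 in knockout (20.8 ± 7.40 and 18.6 ± 1.52). As for Tef, wild-type replicate 3 was lowest and the other wild types were highest. The 12 glucocorticoid-induced genes had 5 positive and 7 negative fold changes (median -0.11), among them Sgk1 at 53.48, 56.00 and 59.47 in wild type and 27.58, 34.41 and 58.36 in knockout, an order unlike that of Dbp. Ddit4, an inhibitor of mTORC1 signalling, read 31.84, 31.69 and 18.81 in wild type and 34.50, 33.45 and 39.44 in knockout. It was higher without overlap, as the 1 such gene of the 12 (limma adjusted p = 0.9995).

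The C/EBP and related bZIP genes, whose proteins bind sites similar to the D-box, showed no common direction. Their 7 tested members had 3 positive and 4 negative fold changes (median -0.04). Cebpa read 24.74, 28.06 and 30.14 FPKM in wild type and 23.16, 22.93 and 24.78 in knockout, and Cebpd read 20.49, 19.18 and 27.10 and then 22.52, 34.49 and 28.38. In the circuit of WEE1 and CDK1, 9 of 10 tested genes had positive fold changes and 1 a negative one (median 0.24), where 47.3% of all tested genes were negative. Ccnb2, a mitotic cyclin gene, read 12.32, 11.19 and 12.23 FPKM in wild type and 21.24, 16.77 and 14.72 in knockout. Cdc25a, a gene of a phosphatase that opposes WEE1, read 13.54, 15.16 and 15.04 and then 12.34, 11.24 and 9.98. The other Cdc25 genes of the list went the other way, with log2 fold changes of 0.20 for Cdc25b and 0.28 for Cdc25c. Ccnb1, another B-type cyclin gene, was higher in all 3 knockouts (14.68, 13.02 and 10.58 FPKM) than in any wild type, with a log2 fold change of 0.37 (SE 0.13). In Ccnb2, Cdc25a and Ccnb1, 3 of the 10, the groups did not overlap, as in 8.67% of all tested genes, and none passed (limma adjusted p = 0.9995 for each). Of the genes of USP2 substrates and partners, Mdm2 read 14.76, 13.25 and 13.49 in wild type and 13.27, 14.09 and 13.65 in knockout, and all 4 tested had small negative fold changes (median -0.06).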

How the data were processed

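Poly-A RNA of distal colon was sequenced in 3 wild-type and 3 ChREBP knockout mice, grouped by the genotype label, with the replicate number from the title. FPKM per gene and library were deposited by the authors as a single table. HISAT2, RSEM and the build mm39 appear in the submitters' processing notes, and versions and other settings were not given in the sources used here. No step that marks strand is named, so antisense reads cannot be told apart. FPKM are not counts, so genotypes were compared on log2(FPKM + 1) by limma 3.58.1 (R 4.3.3, mean-variance trend, two-sided, genotype alone, Benjamini-Hochberg over all tested genes). The 13247 tested genes reached 1 FPKM in 3 or more libraries. The log2(FPKM + 1) scale understates the change of low genes. Depth was estimated from 348 genes of up to 150 bases, whose values step by whole reads (81.9% to 87.3% within 0.05 of a whole number). The approximate reads per gene use the longest matched GENCODE transcript. Of the 19844 identifiers 19794 matched the RefSeq table, and 27 date-like symbols were restored.

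The members and lists were chosen with earlier results of these data known. Named genes are the 9 output genes, the main clock genes, Mlxipl, the 5 most and 3 least similar genes to Dbp and Usp2, and up to 4 genes per list by smallest p; Sirt1, Fkbp5, Ddx3y, Rnase1, Alb, Apoa2, Ttr, Hoxb13, Xist, Clps, Hbegf, Pfkfb4 and Cipc were added after their values were seen. Same-numbered wild-type and knockout libraries deviated from their group means with correlations of 0.27, -0.0963 and 0.0629, so the numbers were not taken as pairs. Alternatives were other pseudocounts, filters, scalings, models of the spread, the replicate block and leaving out libraries. Scripts used Python 3.11.15, numpy 2.4.6, pandas 2.3.3, scipy 1.17.1 and matplotlib 3.10.9.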

Additional observations from a re-analysis of the deposited data

How the results depend on the processing

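None of the 8 tested output genes and none of the 18 tested core clock genes passed limma's adjusted threshold under any alternative run. With all libraries, 1 and 3 of them reached an unadjusted p below 0.05 in limma, and 450 of all 13247 tested genes did. Dropping wild-type replicate 3 raised the output genes below that level to 7 of 8, and all tested genes to 458. Array weights, which give each library its own weight, placed 6 of the 8 there and 631 of all tested genes. The output genes were chosen with earlier results known, so no conclusion is drawn from these counts. Output genes with a larger SD among wild types numbered 9, and 2 without wild-type replicate 3. Over all genes limma called 2. It called 0 with a filter at 5 FPKM (321 genes at an unadjusted p under 0.05), 0 with the replicate block, which pairs libraries by number (504 genes), and between 0 and 1 with 1 library left out. The fit with the replicate block changed no call of an output gene. Output genes lower in knockout numbered 7 of 9, 8 without wild-type replicate 3, and 2 with it as the only wild type, an alternative added after seeing the data. There the log2 fold changes reversed to 1.22 for Dbp, 0.73 for Tef, 0.27 for Hlf, 0.68 for Ciart, 0.32 for Wee1 and -0.29 for Nfil3, and a lone wild type is assumed to vary like the knockouts. Bhlhe40 lay between -0.14 and 0.35 with 1 library left out, below 0 without wild-type replicate 3. Of 36 pairs of output genes, 23 had an r of at least 0.8 in size, 16 without the 2 libraries farthest from the median and 32 in deviations from the genotype means. Depth limits Ciart most, at about 15 reads in its lowest library.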

Other observations

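Outside the clock lists, some genes shared the library order of Nfil3, the reverse of that of Tef. They were singled out after their values were seen, from 20 genes with that order among 12594 tested genes, a count that includes Nfil3. No link to the clock is read from the order. Hbegf, an EGF family ligand, read 2.98, 4.34 and 8.07 FPKM in wild type and 6.18, 7.41 and 4.56 in knockout. Pfkfb4, a regulator of glycolysis, read 7.06, 7.21 and 9.98 and then 7.65, 9.22 and 7.23. In both the genotypes overlapped, with wild-type replicate 3 highest and wild-type replicates 1 and 2 lowest. Clps, the pancreatic colipase gene, read 184.79 FPKM in wild-type replicate 3 and 16.71 to 25.19 in the other 5 libraries, as a second gene beside Rnase1 in which that library stood apart.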
